A study of Mus musculus with 2 samples.

Results

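Enterochromaffin cells, the serotonin-making cells of the intestinal epithelium, were picked from single-cell RNA sequencing of mouse small intestinal organoids by the level of Tph1, which encodes the tryptophan hydroxylase that starts serotonin synthesis. Of 21806 barcodes, 4066 had at least 500 genes, at least 1000 unique molecular identifiers (UMIs, each standing for 1 captured RNA molecule) and at most 20% mitochondrial UMIs. Levels in single cells are given as UMIs per 10000 UMIs of the barcode (CP10K). Members had Chgb at 5 CP10K or more, Tph1 at 3 CP10K or more, fewer than 2 UMIs of Neurog3, and under 20 CP10K for the sum of 6 hormone genes (Gcg, Cck, Gip, Ghrl, Nts and Pyy). This left 757 barcodes by Chgb, 357 after Tph1, 213 after Neurog3 and 205 members after the hormone limit, which is 5.04% of the kept barcodes (exact Clopper-Pearson interval 4.39% to 5.76%). Intervals, here and below, are 95% ones that account for counting error alone.

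The series lists 2 libraries, a control and a melatonin-treated one, in a study whose title asks about melatonin, prostaglandin E2 and YAP in intestinal repair. Each was pooled from 3 organoid lines at culture day 3. No genotype, strain, animal age or melatonin dose is stated for these lines, and organoids hold epithelium without the nerves, immune cells and stroma of the gut. The matrix deposited for the control and the one deposited for melatonin were identical in 3 of 3 files, barcodes end in 1 or 2, and nothing links a suffix to a treatment. The data were therefore treated as 1 sample, no treatment comparison and no test was made, and suffixes are described under their numbers with an arbitrary direction.

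Enterochromaffin cells are the main source of the body's serotonin. Tph1 hydroxylates tryptophan with tetrahydrobiopterin as cofactor, Ddc decarboxylates the product to serotonin, and vesicular monoamine transporters load it into granules that also hold chromogranins and peptides. The cells descend from epithelial precursors that pass through a stage with the transcription factor Neurog3, sense chemicals and stretch, and release serotonin onto nerve endings. In the gut they are known to exist in states rich in the tachykinin gene Tac1, which encodes substance P, or rich in other peptides, and these states differ with position along the crypt and villus.

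The 205 members comprised 103 of 2300 kept barcodes of suffix 1 (4.48%, 3.67% to 5.41%) and 102 of 1766 of suffix 2 (5.78%, 4.73% to 6.97%). They had a median of 14124 UMIs (range 1312 to 65414), 3992 genes and 6.92% mitochondrial UMIs. Median UMIs were 14110 in suffix 1 and 14191.5 in suffix 2. Barcode sequences occurring under both suffixes numbered 29 in the matrix and 0 among the members. All 5 immune markers had 0 UMIs in members. Summed levels were 13.0 CPM (summed UMIs per 1000000 UMIs of the set) for 6 tuft markers, 16.2 CPM for 6 neural markers and 182 CPM for 6 stem markers. The 10 enterocyte markers summed to 729 CPM, against 6002 CPM in the 3272 kept barcodes with low Chgb and Neurog3 (Chgb-low barcodes, median 33011.5 UMIs), where tuft, neural and stem markers summed to 2.95, 1.80 and 611 CPM. The 8 goblet markers summed to 1277 CPM against 789 CPM in Chgb-low barcodes, and 1157 CPM of the members' sum was Tff3, while Muc2, the main goblet mucin gene, was at 1.62 CPM. Among 6 mesenchymal markers, only Vim had UMIs and it is described with the cytoskeletal genes.

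The first 250 bases upstream of the start are shown for the 6 marker genes (Tph1, Chgb, Chga, Tac1, Reg4 and Ucn3). Of these, only Tph1 and Chgb are in the rule. Chromogranin genes are known targets of cyclic AMP response factors, whose core site reads TGACG. The sequences are those of RefSeq on GRCm38.p6, 5′ to 3′ on the gene's strand, with TGACG and its reverse complement CGTCA in capitals. They lie at chr7:46672538-46672787 on the minus strand for Tph1 (the farther upstream of 2 listed starts), chr2:132781392-132781641 on the plus strand for Chgb, chr12:102554691-102554940 on the plus strand for Chga and chr6:7554811-7555060 on the plus strand for Tac1. Reg4 lies at chr3:98221906-98222155 on the plus strand and Ucn3 at chr13:3945350-3945599 on the minus strand.
Tph1: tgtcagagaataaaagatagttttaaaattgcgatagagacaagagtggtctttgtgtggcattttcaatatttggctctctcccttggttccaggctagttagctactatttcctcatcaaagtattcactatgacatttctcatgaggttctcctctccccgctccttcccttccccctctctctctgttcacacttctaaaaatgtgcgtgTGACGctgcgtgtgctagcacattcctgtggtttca
Chgb: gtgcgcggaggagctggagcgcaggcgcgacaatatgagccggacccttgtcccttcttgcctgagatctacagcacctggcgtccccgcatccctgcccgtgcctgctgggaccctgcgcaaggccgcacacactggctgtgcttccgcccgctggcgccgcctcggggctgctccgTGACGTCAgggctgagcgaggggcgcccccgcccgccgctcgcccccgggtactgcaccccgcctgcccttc
Chga: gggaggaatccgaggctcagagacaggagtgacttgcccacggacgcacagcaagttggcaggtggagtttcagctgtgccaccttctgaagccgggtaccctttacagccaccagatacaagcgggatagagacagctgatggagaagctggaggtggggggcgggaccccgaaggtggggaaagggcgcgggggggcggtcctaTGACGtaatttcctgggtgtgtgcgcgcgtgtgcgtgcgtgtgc
Tac1: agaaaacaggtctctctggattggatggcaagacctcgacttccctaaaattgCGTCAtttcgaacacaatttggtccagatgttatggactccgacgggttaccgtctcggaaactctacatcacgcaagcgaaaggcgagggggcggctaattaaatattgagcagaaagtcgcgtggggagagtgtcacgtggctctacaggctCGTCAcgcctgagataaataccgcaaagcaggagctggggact
Reg4: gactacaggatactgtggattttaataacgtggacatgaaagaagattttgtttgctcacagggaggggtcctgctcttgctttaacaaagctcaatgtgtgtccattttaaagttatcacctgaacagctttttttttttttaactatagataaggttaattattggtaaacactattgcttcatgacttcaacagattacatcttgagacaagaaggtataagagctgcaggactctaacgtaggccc
Ucn3: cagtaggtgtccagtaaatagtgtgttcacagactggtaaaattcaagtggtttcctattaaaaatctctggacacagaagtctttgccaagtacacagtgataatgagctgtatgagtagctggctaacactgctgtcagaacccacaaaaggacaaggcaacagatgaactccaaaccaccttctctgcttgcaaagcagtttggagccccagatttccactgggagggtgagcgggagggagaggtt
TGACG, read on either strand, was present in 4 of these 6 stretches and in 17.8% of 32851 promoters of the same length. In Chgb it was part of the full palindrome TGACGTCA, present in 1 of 6 stretches and in 1.55% of all promoters. The Tac1 stretch held the letters at 2 places. Reg4 and Ucn3 had no match, which says only that these letters are not in this window. Motifs were searched on both strands and 11 were tried. Besides these, they were TATAAA (in 0 of 6, 12.4% of all), CAGATG (2, 14.4%), CAGCTG (1, 13.0%), TGTTTAC (1, 3.17%), TAATTA (2, 4.84%), GGAAGT (1, 19.7%), CACTTAA (0, 2.10%), CACTTGA (1, 2.68%) and TGATTGAC (0, 0.691%). TGACGTCA contains TGACG, and a match is a description of the sequence, not a shown binding site.

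The members chosen by Tph1 and Chgb carried the other enterochromaffin markers as well. Tac1 had a UMI in 203 of 205 members, with a lowest level of 0, a median of 65.5 and a highest of 211 CP10K. Chga, the granule protein chromogranin A, had a UMI in 203 members, with a median of 137 CP10K and a maximum of 437. These 2 genes were near-universal in the group. Reg4, a secreted lectin used as an enterochromaffin marker, had a UMI in 153 members and spanned 0 to 930 CP10K with a median of 79.1. Ucn3, the peptide urocortin 3, had a UMI in 146 members and spanned 0 to 44.0 CP10K with a median of 2.38. Reg4 and Ucn3 were thus absent from the counts of a large share of the cells and high in others. The rule's own genes are given as a description only. Tph1 spanned 3.08 to 78.2 CP10K (median 14.2) and Chgb 6.65 to 1032 CP10K (median 606).

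**Figure D1:**
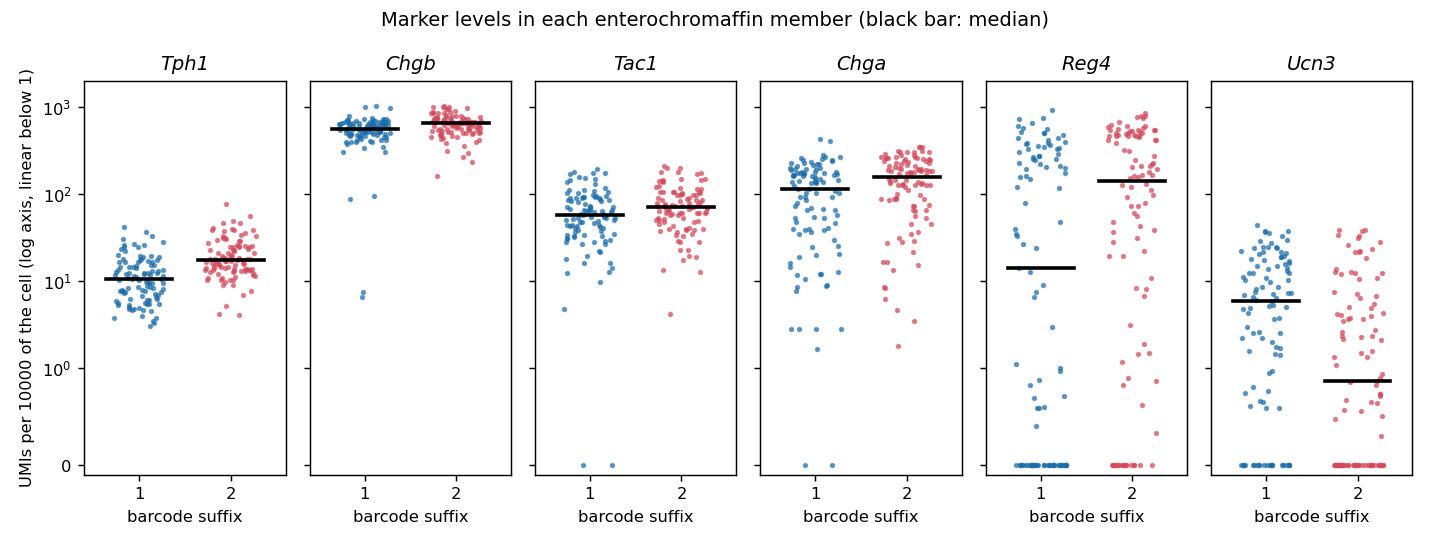
Each point is 1 of the 205 members, placed by its barcode suffix (x axis) and its UMIs per 10000 (y axis, log scale that is linear below 1), for 6 marker genes, with the median as a black bar. Chga and Tac1 have 2 members at 0, whereas 52 members have no Reg4 UMI and the Reg4 medians are 14.2 and 142 for suffix 1 and 2.

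At a common depth of 2000 UMIs, which left out 3 members and 188 Chgb-low barcodes, a UMI was expected in 99.3% of members for Tac1, 97.1% for Chga, 65.6% for Reg4 and 47.3% for Ucn3. In Chgb-low barcodes, which should lack these genes, the expected shares were 1.55%, 1.57%, 2.41% and 0.0646%. Without thinning the Reg4 share was 74.6% of members and 26% of Chgb-low barcodes, and the Ucn3 share 71.2% and 1.13%. Each of the 4 shares in members was far above this background.

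The edge of the rule was examined by the values next to each limit. For Tph1 the nearest member stood at 3.08 CP10K and the nearest barcode outside at 2.94. For the hormone sum the nearest were 17.3 inside and 21.4 outside. Both members nearest the Chgb limit, at 6.65 and 7.62 CP10K, came from suffix 1 and are the 2 without Tac1 and Chga UMIs. They held 1504 and 1312 UMIs in all, with 1 UMI each of Tph1, Chgb and Reg4, and the next member stood at 87.2 CP10K of Chgb. They fall out at a Chgb limit of 20 CP10K. A limit on Neurog3 alone kept out 137 barcodes, the hormone limit alone 8, the Tph1 limit alone 169 and the Chgb limit alone 3. A single Neurog3 UMI was present in 18 members. Doublets were not called, and 1 member lay among the top 5% of UMIs of its suffix.

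Members were compared with 3 sets of cells by summing UMIs and scaling to CPM, and a gene with 10 CPM or more in either set was called when its CPM differed past 2-fold, on log2 of CPM plus 1. With a single pool there was no replicate check. Against all 3861 other kept barcodes, 2670 of 8987 genes were higher (29.7%) and 1159 lower (12.9%), with an all-gene median of 0.41 on the log2 scale. These counts over all genes include the rule's own genes, and the list counts below leave them out. Scaling by the median of ratios gave 1944 higher and 1627 lower, so the higher share of the calls moved from 69.7% to 54.4%. Against 194 peptide-hormone cells (Chgb at the limit, hormone sum at 20 CP10K or more, fewer than 2 Neurog3 UMIs, median 18068.5 UMIs), 871 of 8655 genes were higher (10.1%) and 353 lower (4.08%), with a median of 0.21. Median-of-ratios scaling gave 640 and 451 there, 58.7% higher in place of 71.2%. Against 226 Neurog3-positive cells with 2 or more Neurog3 UMIs (median 13915 UMIs), 437 of 8857 were higher (4.93%) and 407 lower (4.6%), with a median of -0.06. Of those 226, 144 also met the Tph1 and Chgb limits and are called Neurog3-positive Tph1 cells below.

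The genes for making and storing serotonin were present as a set, and those for taking it back or turning it into melatonin were at or near 0. Outside Tph1, 17 of 31 pathway genes were abundant enough to compare with peptide-hormone cells. Of these, 5 were higher past 2-fold and 1 lower, against 10.1% and 4.08% of all genes. Their median log2 ratio was 0.40, against 0.21 for all genes. Ddc, the decarboxylase, stood at 777 CPM (746 to 809) against 167 CPM (153 to 182) in peptide-hormone cells, a log2 ratio of 2.21. Slc18a1, the vesicular monoamine transporter 1, stood at 469.7 CPM (446 to 495) against 64.9 CPM (56.4 to 74.4) (2.84). Slc18a2, the vesicular monoamine transporter 2, stood at 134 CPM (122 to 148) against 1.25 CPM (0.34 to 3.2), and was 108-fold (41.7 to 397) higher. It was counted in 90 members, with 20.3% of its UMIs in the 3 highest cells, whereas Slc18a1 was counted in 196. Both vesicle transporter genes were thus counted in the group. At 2000 UMIs per cell a UMI was expected in 59.2% of members for Slc18a1 and 16.6% for Slc18a2, and at this depth a cell without a UMI may still transcribe the gene. The others past 2-fold were Qdpr, which regenerates tetrahydrobiopterin, at 407 against 144 CPM, and Maob, a monoamine oxidase, at 29.2 against 13.7 CPM. Maob's log2 ratio of 1.04 is less than 2-fold above the all-gene median of 0.21.

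Of the 7 tetrahydrobiopterin genes, the other 6 stayed within 2-fold of peptide-hormone cells. Gch1, which encodes the entry enzyme of that pathway, stood at 319 CPM in members, 169 CPM in peptide-hormone cells, 326 CPM in Neurog3-positive cells and 22.8 CPM in Chgb-low barcodes. It was thus high in all 3 endocrine sets compared with Chgb-low barcodes. Slc6a19, a transporter of neutral amino acids including tryptophan, was the pathway gene lower than in peptide-hormone cells, at 44.4 against 131 CPM. Slc6a4, the serotonin reuptake transporter, had 4 UMIs in members, or 1.3 CPM (0.354 to 3.32), against 9.64 CPM in Chgb-low barcodes. Maoa, the monoamine oxidase that degrades serotonin, stood at 13 CPM against 76.2 CPM in Chgb-low barcodes. Slc6a4 and Maoa were thus lower in members than in the Chgb-low epithelium. The neuronal hydroxylase gene Tph2, the melatonin-making enzyme genes Aanat and Asmt and the receptor gene Mtnr1b had 0 UMIs in members, which allows up to 0.973 CPM each, and the receptor gene Mtnr1a had 1 UMI. Of 8 serotonin receptor genes, 7 had 0 UMIs and Htr1d had 5 UMIs.

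Members had high Chga and Vgf and low Scg2 beside peptide-hormone cells, and the 6 hormones capped by the rule are not compared. Chga stood at 14446 CPM (14312 to 14581) in members, 738 CPM (709 to 769) in peptide-hormone cells and 1192 CPM (1157 to 1229) in Neurog3-positive cells. Vgf, another granin, was higher than in both, at 315 CPM against 78.6 and 83 CPM. Scg2, secretogranin II, went the other way, at 6.81 CPM (4.22 to 10.4) against 1393 CPM (1353 to 1435) in peptide-hormone cells, 204-fold (134 to 331) lower. Of 5 granin genes outside the rule, 2 were higher and 1 lower past 2-fold than in peptide-hormone cells, with Scg3 and Scg5 within 2-fold. Of all genes, 10.1% were higher and 4.08% lower in this comparison. Cpe, carboxypeptidase E of prohormone processing, stood at 609 CPM against 2787 CPM in peptide-hormone cells, and Pcsk2, prohormone convertase 2, at 2.6 against 23.4 CPM. Pcsk1, prohormone convertase 1, stood at 685 against 457 CPM. Of 6 processing genes, 0 were higher and 2 lower past 2-fold, Cpe and Pcsk2, beside the same shares of all genes.

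Tac1 and Ucn3 were the abundant peptide genes. Tac1 stood at 7133 CPM (7039 to 7228) in members, 655 CPM (628 to 684) in peptide-hormone cells and 5935 CPM (5856 to 6015) in Neurog3-positive cells. Ucn3 stood at 787 CPM (756 to 819), 9.36 CPM (6.32 to 13.4) and 28.5 CPM (23.2 to 34.6) in the same order. Tac1 was thus within 2-fold in Neurog3-positive cells, while Ucn3 was 27.6-fold (22.7 to 34) higher in members. Sct, secretin, which the rule did not cap, stood at 166 CPM against 3059 CPM in peptide-hormone cells and reached 3 CP10K in 23 of 205 members. Cartpt, the CART peptide, was found in 5 members, all of suffix 2. Sst, somatostatin, had 3 UMIs in members. Its level in peptide-hormone cells came to 99.9% from 3 cells.

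Of 20 exocytosis genes tested against other kept barcodes, 17 were higher past 2-fold and 1 lower, with a median of 3.40. Of all genes, 29.7% were higher and 12.9% lower, with a median of 0.41. A gene near 0 in the other barcodes could be tested only through the members and had to come out higher. Nothing is therefore read from these counts. Snap25, a membrane fusion protein, stood at 89.9 CPM against 0.225 CPM in Chgb-low barcodes. Against peptide-hormone cells 4 of 20 were higher (Cadps2, Syt1, Rab3b and Rab3c) and 2 lower, where 10.1% and 4.08% of all genes were. The median was 0.65. Rab3c, a small GTPase of vesicle release, stood at 953 CPM (919 to 988) against 67.4 CPM (58.7 to 77), and its relative Rab3b at 70.1 against 4.68 CPM, while Rab3a stood at 25.3 against 25.3 CPM and Rab3d at 134 against 134 CPM. Scgn, the calcium sensor secretagogin, was lower, at 2.92 against 227 CPM. Of the 20, 14 were within 2-fold, against 7431 of all 8655 genes.

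Several listed transcription factors differed between members and the other endocrine sets. Of 8 factors listed as enterochromaffin-associated, 8 were higher than in other kept barcodes, where 29.7% of all genes were. Against peptide-hormone cells 5 were higher and 1 lower, where 10.1% and 4.08% of all genes were. Lmx1a and Mnx1 were under 10 CPM in peptide-hormone cells and were tested only through the members, so nothing is read from these counts. Lmx1a, a LIM homeobox factor needed for Tph1 expression, stood at 254 CPM (237 to 272) in members, 139.9 CPM (128 to 153) in Neurog3-positive cells and 3.74 CPM (1.94 to 6.54) in peptide-hormone cells. Fev, an ETS factor of serotonergic cells, stood at 309.8 CPM (290.5 to 330.1), 249.99 CPM (234 to 267) and 102 CPM (91 to 113). Mnx1, a homeobox factor, stood at 46.7 CPM (39.4 to 55), 13.1 CPM (9.65 to 17.5) and 4.37 CPM (2.39 to 7.33). For these 3 factors the order was members, then Neurog3-positive cells, then peptide-hormone cells, with intervals apart. Over the 8 factors, 2 were higher than in Neurog3-positive cells, 3 lower and 3 within 2-fold. Of all genes, 4.93% were higher and 4.6% lower there. Nkx2-2, a homeobox factor of endocrine fate, had a log2 ratio of 1.03 to peptide-hormone cells, near the 2-fold limit. Egr3, an early growth response factor, stood at 66.5 against 13.1 CPM. St18, a zinc finger factor, was the 1 lower, at 29.5 against 61.8 CPM.

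Of 16 other enteroendocrine factors tested, 3 were higher (Rfx3, Foxa1 and Sox4) and 7 lower than in peptide-hormone cells, with a median of -0.54. Of all genes, 10.1% were higher and 4.08% lower, with a median of 0.21. Isl1 and Etv1 were tested only through the peptide-hormone cells, so nothing is read from these counts. Isl1, a LIM homeobox factor of several hormone cell kinds, had 1 UMI in 205 members and stood at 232 CPM (216 to 249.8) in peptide-hormone cells, 717-fold (128 to 28345) lower. Etv1, an ETS factor, stood at 5.51 CPM (3.21 to 8.83) against 352 CPM (332 to 373). Pax6, a paired box factor, stood at 56.4 CPM (48.4 to 65.5) against 219.7 CPM (204 to 237). These 3 were among the lower ones, as were Hhex, Pdx1 and Nkx6-3. Insm1, a zinc finger factor of endocrine differentiation, stood at 391 CPM in members and 371 CPM in peptide-hormone cells, against 896 CPM in Neurog3-positive cells. Against Neurog3-positive cells, 2 of the 22 factors tested, Neurog3 left out, were higher past 2-fold, 8 lower and 12 within 2-fold, where 4.93% of all genes were higher and 4.6% lower. Isl1 was 296-fold (52.8 to 11732) lower, on 1 UMI in members. The lower ones also included Pax4, Sox4, Tox3 and Insm1, with log2 ratios of -2.53, -1.99, -1.60 and -1.20.

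Of the sensing genes, 7 of 12 channels and 11 of 13 receptors differed past 2-fold from peptide-hormone cells, in both directions, against 10.1% of all genes higher and 4.08% lower. The lists hold 18 channels and 28 receptors, and those under 10 CPM in both sets were not tested. A gene that passed this limit only through the set where it was high had to differ, so nothing is read from these counts. Trpa1, a channel opened by irritants, stood at 309 CPM (289 to 329) in members, 5.93 CPM (3.57 to 9.26) in peptide-hormone cells and 12.3 CPM (8.93 to 16.5) in Neurog3-positive cells, and was counted in 147 members. Scn3a, a voltage-gated sodium channel, stood at 519.7 CPM (495 to 546), 22.2 CPM (17.3 to 27.9) and 342 CPM (323 to 362). Trpm2, a calcium-permeable channel that responds to oxidants, stood at 48.7 CPM (41.2 to 57.1), 4.06 CPM (2.16 to 6.94) and 4.75 CPM (2.77 to 7.6). Trpa1 and Trpm2 were thus low in both other endocrine sets, and Scn3a was shared with Neurog3-positive cells. Of 12 channel genes tested against peptide-hormone cells, 5 were higher (these with Scn8a and Cacna1h) and 2 lower. The lower ones were the subunits of the ATP-sensitive potassium channel, Abcc8 with 1 UMI in members against 181 CPM (167 to 196), 558-fold (99.7 to 22075) lower, and Kcnj11 with 0 UMIs against 17.8 CPM, at least 18.3-fold lower by a floor of 3 UMIs over the members. Piezo2, the mechanosensitive channel of gut enterochromaffin cells, had 0 UMIs, which allows up to 0.973 CPM.

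Of 13 receptors tested, 4 were higher and 7 lower than in peptide-hormone cells. Ffar2, a receptor for short-chain fatty acids, stood at 188 against 78.3 CPM, and Chrm3, the muscarinic receptor M3, at 45.1 against 10.3 CPM. The odorant receptor genes Olfr558 and Olfr78 stood at 25 and 12.3 CPM against 5.31 and 1.56 CPM, in 18 and 17 members. Ffar1, a receptor for long-chain fatty acids, had 2 UMIs against 133 CPM (120.3 to 146), 204-fold (56.2 to 1693) lower. Ffar3, Ffar4, Gpr119, Galr1, Sstr5 and Cnr1 were also lower. Ffar1, Ffar3, Ffar4 and Gpr119 were thus lower in members than in peptide-hormone cells and Ffar2 higher, which describes single genes only.

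**Figure D2:**
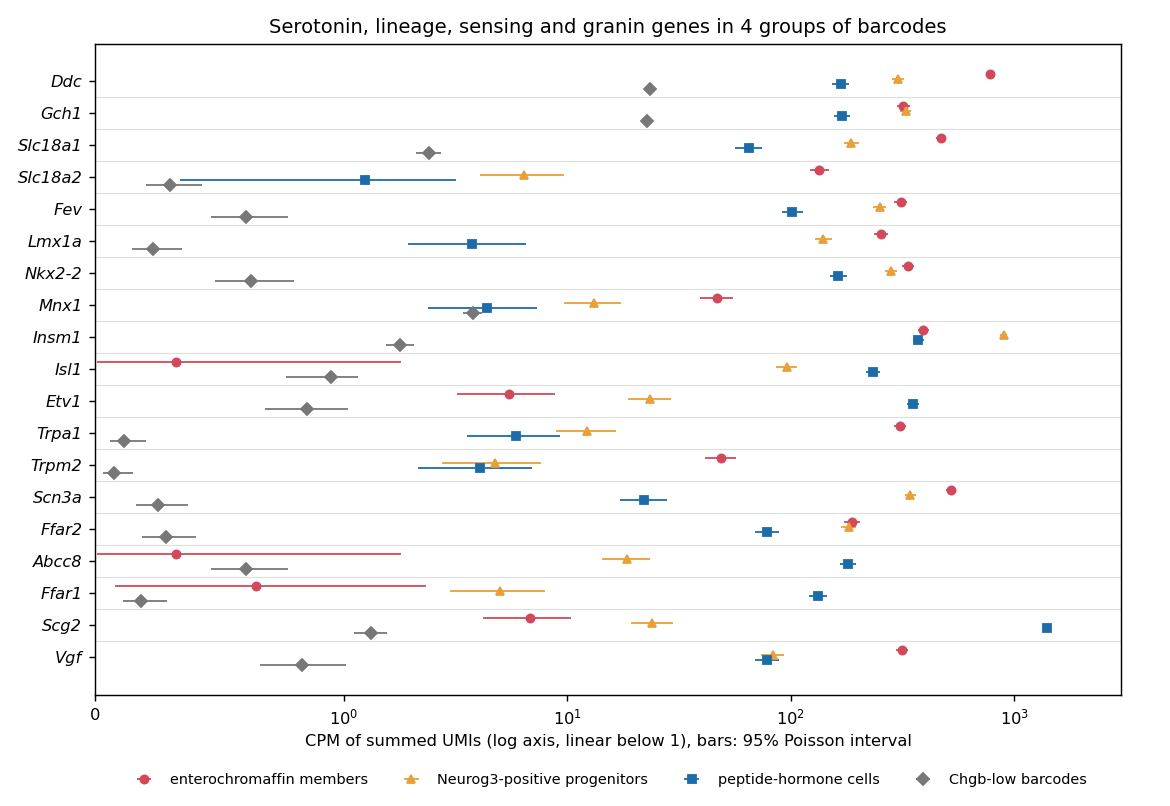
Points are CPM of summed UMIs (x axis, log scale that is linear below 1) with 95% Poisson intervals for 19 genes in members (n = 205), Neurog3-positive cells (n = 226), peptide-hormone cells (n = 194) and Chgb-low barcodes (n = 3272). Slc18a2, Lmx1a, Mnx1, Trpa1, Trpm2 and Scn3a are over 10 times higher in members than in peptide-hormone cells. Isl1, Etv1, Abcc8, Ffar1 and Scg2 are over 10 times lower.

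Vim, the intermediate filament vimentin and a usual marker of mesenchyme, was an abundant transcript of members. It had a UMI in 198 of 205 members and stood at 1521 CPM (1478 to 1565), against 813 CPM (784 to 843) in Neurog3-positive cells, 60.5 CPM (52.3 to 69.7) in peptide-hormone cells and 0.793 CPM (0.63 to 0.986) in Chgb-low barcodes. The other mesenchymal markers, Col1a1, Col1a2, Col3a1, Dcn and Pdgfra, had 0 UMIs in members. At 2000 UMIs per cell a Vim UMI was expected in 83.8% of members and 0.237% of Chgb-low barcodes. Krt7, a keratin of simple epithelia, stood at 326 CPM against 134 CPM in peptide-hormone cells and 32 CPM in Chgb-low barcodes.

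Members carried few transcripts of cell division. All 10 genes of G2 and mitosis were lower past 2-fold than in other kept barcodes and 8 of 10 were lower than in Neurog3-positive cells. The shares of all genes lower in these comparisons were 12.9% and 4.6%. Against peptide-hormone cells 0 of 9 tested were lower and Nusap1, a spindle protein, was the 1 higher. Of all genes, 4.08% were lower and 10.1% higher there. Mki67, the proliferation antigen, stood at 18.2 CPM in members, 34.4 CPM in Neurog3-positive cells and 136 CPM in Chgb-low barcodes, and had a UMI in 29 members. Of 7 S phase genes 6 were lower than in other kept barcodes, with Pcna at a log2 ratio of -0.84. All 4 cell cycle inhibitor genes were higher than in other kept barcodes, where 29.7% of all genes were higher. Cdkn1a stood at 433 CPM in members, 408 CPM in Neurog3-positive cells and 91.9 CPM in Chgb-low barcodes, whereas Cdkn1c, at 39.3 CPM, was lower than its 224 CPM in peptide-hormone cells.

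Immediate early genes, which respond within minutes to stimulation and to cell dissociation, were high. All 8 were higher past 2-fold than in other kept barcodes, 5 of 8 were higher than in peptide-hormone cells and 3 of 8 than in Neurog3-positive cells. The shares of all genes higher in these comparisons were 29.7%, 10.1% and 4.93%. Fos and Ier2, at 1.03 and 1.05 against other kept barcodes, were less than 2-fold above the all-gene median of 0.41. Jun stood at 2690.0 CPM in members against 1108 CPM in peptide-hormone cells and 1471 CPM in Neurog3-positive cells. Fosb stood at 811 CPM against 182 and 236 CPM. The part of dissociation in these levels was not tested. Of 11 Wnt target and BMP response genes tested against peptide-hormone cells, 2 were higher, Sox9 (a crypt and endocrine factor) at 119.7 against 21.8 CPM and Id1, and Bambi was lower. These counts are near the 10.1% and 4.08% of all genes.

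The 12 genes with the largest ratio to all other kept barcodes, by the naming rule, were Reg4, Ucn3, Chga, Afp, Trpa1, Tpbg, Dusp2, Slc18a2, Fxyd6, Adcy1, Il17re and Pappa2. Their log2 ratios ran from 8.61 to 5.95. Afp, alpha-fetoprotein, stood at 3146 CPM (3084 to 3209) in members against 25.3 CPM (20.1 to 31.4) in peptide-hormone cells and 2.43 CPM (2.14 to 2.75) in Chgb-low barcodes. It was uneven, with 140 members holding a UMI, a median of 2.12 and a maximum of 483 CP10K, and 27.5% of its UMIs in 3 cells. Tpbg, a membrane glycoprotein, was more even, with a UMI in 183 members and 688 CPM. The 12 with the smallest ratio were Fabp1, Cyp2c29, Spink1, Cyp3a11, Leap2, Gsta1, S100g, Cyp4f14, Prap1, Edn1, Cyp2b10 and Areg. Fabp1, the fatty acid binding protein of enterocytes, stood at 75.9 CPM (66.5 to 86.3) and was 26.9-fold (23.7 to 30.7) lower than in other kept barcodes. Gsta1 and the Cyp genes have close relatives among which reads can be shared, so their levels are uncertain.

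Against peptide-hormone cells the 12 with the largest ratio were Afp, Dusp2, Reg4, Rpp25, Ucn3, Pappa2, Slc18a2, Tpbg, Lmx1a, Wfikkn2, Trpa1 and Slc38a11. Dusp2, a phosphatase of MAP kinases, stood at 269 CPM (251 to 288) against 1.87 CPM (0.687 to 4.08). Pappa2, a protease of insulin-like growth factor binding proteins, stood at 346 CPM (325 to 367) against 4.68 CPM (2.62 to 7.72). Wfikkn2 had 1 UMI in peptide-hormone cells, which gives 204-fold (36.1 to 8088). Of 20 further genes listed for enterochromaffin cells, a list that shares 9 genes with the lists above, 13 were higher and 2 lower (Gpx3 and Iapp). Of all genes, 10.1% were higher and 4.08% lower, and the medians were 2.36 for the list and 0.21 for all genes. The list was chosen with earlier results of these data known. Genes low in peptide-hormone cells were tested only through the members, so nothing is read from this count. Gstt1, a glutathione S-transferase, stood at 1721 CPM (1675 to 1768) against 67.7 CPM (59 to 77.4). The 12 with the smallest ratio were Lect2, Scg2, Isl1, Abcc8, Krt20, Onecut3, Rbp4, Ffar1, Serpina1b, Agr2, Scgn and Etv1. Rbp4, the retinol binding protein, stood at 10.1 against 1254 CPM. Onecut3, a homeobox factor, had 0 UMIs in members against 123 CPM (111 to 136), at least 126-fold lower. In peptide-hormone cells 93.7% of the Reg4 UMIs lay in 3 cells, and its log2 ratio was 4.86 within suffix 1 and 8.70 within suffix 2. Lmx1a had 4.51 and 7.48, and Trpa1 4.97 and 5.86, in the same order. Within suffix 1, 1066 of 8750 genes were higher (12.2%) and 440 lower (5.03%) than in peptide-hormone cells, and within suffix 2, 983 of 8751 (11.2%) and 414 (4.73%). The count of this list was 13 of 19 higher within suffix 1 and 12 of 20 within suffix 2. Sst and Gast were kept out of this naming because over 50% of their UMIs in peptide-hormone cells came from 3 cells.

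The 144 Neurog3-positive Tph1 cells were chosen by the same Tph1 and Chgb limits as members and by 2 or more Neurog3 UMIs, so these 3 genes are not compared. Tac1 stood at 9646 CPM (9514 to 9780.3) in them and 7133 CPM in members. Fev stood at 341 CPM (316 to 367) and 309.8 CPM. Scn3a stood at 529 CPM (498 to 561) and 519.7 CPM. Lmx1a, at 224 against 254 CPM, and Vim, at 1288 against 1521 CPM, were also within 2-fold. Other genes, most of them among those named below for their high ratio over all 226 Neurog3-positive cells, had lower values in these 144 of the 226 and are given as a description. Reg4 stood at 245 CPM (225 to 268) against 22227 CPM. Chga stood at 1633 CPM (1579 to 1689) against 14446 CPM. Ucn3 stood at 47.8 CPM (38.9 to 58.1) against 787 CPM. Trpa1 (21 against 309 CPM), Slc18a2 (11 against 134 CPM), Dusp2 (27.2 against 269 CPM) and Afp (128 against 3146 CPM) also had lower values. Reg4 reached 3 CP10K in 8 of 144 of these cells and Ucn3 in 5 of 144, against 133 and 97 of 205 members, and 65% of the Reg4 UMIs of these cells lay in 3 of them. Not all lineage factors were within 2-fold. Mnx1 stood at 19.1 against 46.7 CPM and Insm1 at 1022 against 391 CPM.

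By the naming rule, the 8 genes highest in members over all 226 Neurog3-positive cells were Reg4, Afp, Ucn3, Trpa1, Gde1, Wfikkn2, Slc18a2 and Dusp2. The 8 lowest were Isl1, Scgn, Fcgbp, Pax4, Cbfa2t3, Bambi, Epb42 and Hmgb3. Isl1 was at 0.478 CPM in the 144 Neurog3-positive Tph1 cells and at 96.1 CPM in all 226, so its UMIs lay mainly in the other 82. Agr2 and Spink4 were kept out of this naming because 3 cells held over 50% of their UMIs.

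Reg4 was widely spread among the members. It reached 3 CP10K in 133 of 205 members (64.9%, 57.9% to 71.4%) and 52 had no UMI, while only 2 members lay between 2 and 4 CP10K. Among the 133, the median was 272 CP10K. Ucn3 reached 3 CP10K in 97 members (47.3%, 40.3% to 54.4%), and 21 lay between 2 and 4, so the cut on Ucn3 falls among many cells. Both genes reached it in 78 members, Reg4 alone in 55, Ucn3 alone in 19 and neither in 53. Members with both were 58.6% of those with Reg4 and 80.4% of those with Ucn3. Across the 205 members, Spearman's correlation of Reg4 was 0.72 with Chga, 0.48 with Trpa1, 0.40 with Ucn3 and -0.25 with Tac1. The same correlation of Reg4 with the UMI total of the cell was 0.43, and cells share libraries and depth, so these are descriptions. Within suffix 1 and suffix 2, the correlation of Reg4 with Chga was 0.63 and 0.76, and with Tac1 -0.29 and -0.34. Reg4 varied along with Chga and in the opposite sense to Tac1.

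**Figure D3:**
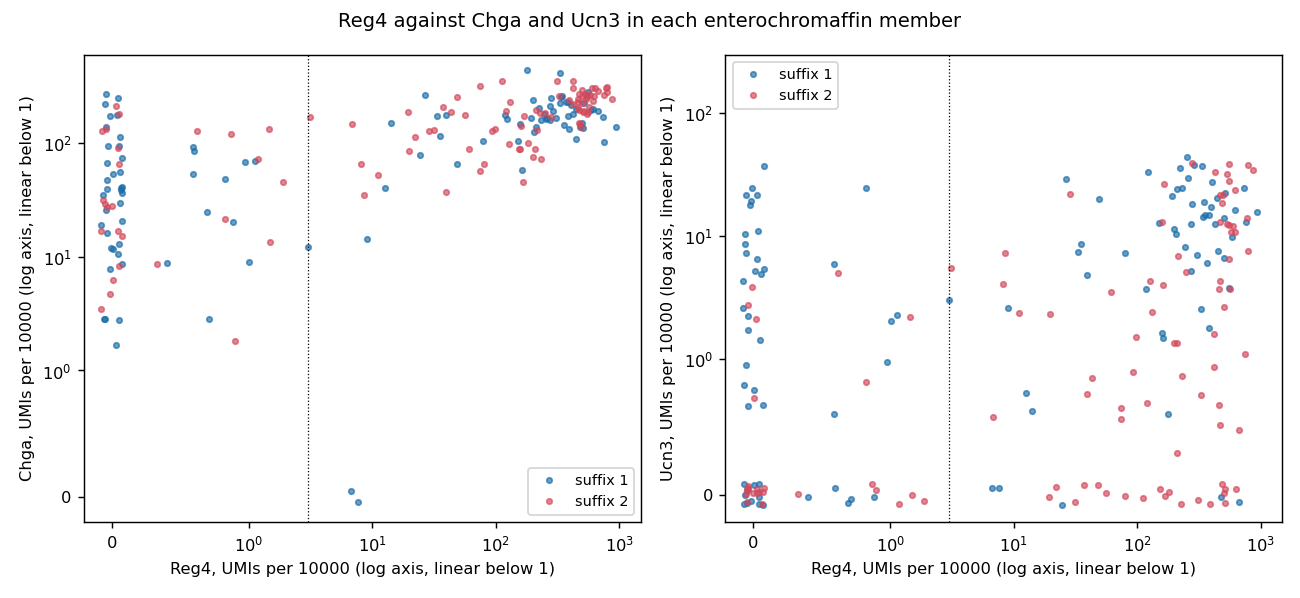
Each point is a member, coloured by barcode suffix, with Reg4 on the x axis and Chga (left) or Ucn3 (right) on the y axis, in UMIs per 10000 on log scales that are linear below 1, with points at 0 spread slightly and a dotted line at 3 for Reg4. Apart from 2 barcodes of suffix 1 without Chga, members right of the line are mostly above 100 for Chga (median 180), while those left of it have a median of 35.7.

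The 133 members with Reg4 at 3 CP10K or more were set against the other 72, a cut chosen after seeing the data because Tac1 split the members 203 to 2. It divides a range, not types, and the median UMIs were 15142 and 12396. Reg4 itself is left out of the list counts. Past 2-fold, 204 of 8698 genes were higher (2.35%) and 289 lower (3.32%), with an all-gene median of -0.13, and median-of-ratios scaling turned the balance to 275 higher and 204 lower, 57.4% in place of 41.4%. Chga stood at 18130.5 CPM (17951 to 18311) against 5890.1 CPM (5735 to 6048), and its lowest and median values in single cells were 0 and 180 CP10K against 1.66 and 35.7. Ucn3 stood at 979 CPM (938 to 1022) against 341 CPM (304 to 380.3). Trpa1 stood at 381 CPM (355 to 408) against 141 CPM (118 to 168). All 3 ranges of single cells overlapped between the sets, while the sums lay apart. Slc18a2 stood at 184 CPM (167 to 203) against 18.3 CPM (10.7 to 29.3), 10.1-fold (6.2 to 17.4) higher, while Slc18a1 had a log2 ratio of 0.64, Ddc 0.31, Lmx1a 0.28 and Fev -0.15. Within suffix 1 and suffix 2 the log2 ratio was 1.60 and 1.58 for Chga, and 1.47 and 3.39 for Ucn3. For Slc18a2 it was 2.68 in suffix 1, and 7.54 in suffix 2, where the members under the Reg4 cut had 0 UMIs of Slc18a2 and the value rests on the pseudocount. Of 17 genes in the serotonin list 2 were higher past 2-fold, Slc18a2 and Pts of tetrahydrobiopterin synthesis, and 0 lower.

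Of 21 transcription factors tested by Reg4, 1 was higher past 2-fold, 5 lower and 15 within 2-fold. Of all genes, 2.35% were higher and 3.32% lower. Pax4 stood at 6.03 CPM in members with Reg4 at the cut and 34.5 CPM (23.6 to 48.7) in those under it, against 88.8 CPM in Neurog3-positive cells. St18 stood at 18.1 against 56 CPM, and Tox3 had a log2 ratio of -1.15. Tac1 stood at 6592 against 8392 CPM, a log2 ratio of -0.35. Cwh43 stood at 13.9 against 99.2 CPM (79.9 to 122), and at 117 CPM in the Neurog3-positive Tph1 cells. Pax4, St18, Tox3 and Cwh43 were thus past 2-fold higher under the Reg4 cut, and Tac1 was not. Suffix 1 gave 57 of the 133 members at the cut and 46 of the 72 under it. Cwh43 was also past 2-fold higher in suffix 1, as given below. The part of the suffix in the differences of these genes was not tested. By the naming rule the 8 highest at the Reg4 cut were Afp, Slc18a2, Dnaja4, Rgs2, Elac2, Lypd8, C1qa and Ambp, and the 8 lowest Cwh43, Sis, St18, Cpeb2, Ncam2, Ptpn18, Gfra3 and Oxr1. C1qa, a complement subunit usually linked to macrophages, stood at 111 against 25.9 CPM and was in 91 members, all of which lacked the 5 immune markers. Goblet markers summed to 1494 CPM at the Reg4 cut and 772 CPM under it, carried by Tff3 at 1386 against 625 CPM. Their part in these differences was not tested. Bex4 and Alb (higher) and S100a6, Igfbp2, Lyz1 and Acta1 (lower) were kept out of this naming because 3 cells held over 50% of their UMIs.

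Members of the 2 suffixes, which are pools without a replicate, had unlike shares of cells with Reg4 and Ucn3 at 3 CP10K. Of 8719 genes, 121 were higher past 2-fold in suffix 2 (1.39%) and 198 in suffix 1 (2.27%), with a median of 0.00. Of 17 serotonin genes, 19 transcription factors, 18 exocytosis genes and 8 immediate early genes, 0 were past 2-fold in either direction, and lists of this size would hold few at the all-gene shares. Of 18 further enterochromaffin genes 4 were higher in suffix 1 (Cwh43, Rgs4, Akr1c14 and Ambp) and 0 in suffix 2, with a median of -0.22. Of 17 sensing genes 2 were higher in each suffix. Reg4 reached 3 CP10K in 57 of 103 members of suffix 1 (55.3%, 45.2% to 65.1%) and in 76 of 102 of suffix 2 (74.5%, 64.9% to 82.6%), with median UMIs alike as given above. The 2 Reg4 intervals overlap. Ucn3 went the other way, in 61 of 103 (59.2%, 49.1% to 68.8%) and 36 of 102 (35.3%, 26.1% to 45.4%), with intervals apart. The summed levels had log2 ratios of 0.49 for Reg4 and -0.69 for Ucn3. In suffix 2, Ucn3 alone was found in 2 members and Reg4 alone in 42, against 17 and 13 in suffix 1. Tph1, a gene of the rule, had a median of 10.6 CP10K in suffix 1 and 17.7 in suffix 2.

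The 8 genes highest in suffix 2 over suffix 1 were Nptx2, Gstm3, Hk2, Nr4a2, Rgcc, Naa30, Itga4 and Gstm1, with log2 ratios from 1.92 to 0.91. Nptx2, a secreted neuronal pentraxin, stood at 227 CPM (204 to 251) in suffix 2 and 59.1 CPM (47.4 to 72.8) in suffix 1. Hk2, hexokinase 2, stood at 310.0 CPM (283 to 339) and 149.8 CPM (131 to 171). The 3 highest cells held 46.4% of Gstm3 and 43.3% of Gstm1 UMIs in suffix 2, and these 2 genes are close relatives. The 8 highest in suffix 1 were Car9, Pla2g2d, Hs6st2, Dcbld2, Gng8, Fcgbp, Cela1 and Spink4. Dcbld2, a membrane receptor, stood at 208 CPM (185 to 232) in suffix 1 and 56.5 CPM (45.4 to 69.4) in suffix 2. Of 7 receptors tested 1 was higher in suffix 2 and 2 in suffix 1, and of 10 channels 1 was higher in suffix 2. These called genes were under 10 CPM in the other suffix and were tested only through the suffix where they were high. Nothing is therefore read from these counts. Sstr1, a somatostatin receptor, stood at 7.39 CPM (3.69 to 13.2) in suffix 1 and 16.9 CPM (11.2 to 24.7) in suffix 2, and the channel Trpc4 at 3.36 CPM (1.09 to 7.84) and 10.0 CPM (5.74 to 16.3), with intervals that overlap for both. In the other direction Ptger3, the prostaglandin E2 receptor EP3, stood at 42.3 CPM (32.5 to 54.1) and 6.9 CPM (3.45 to 12.4), and Olfr558 at 47 CPM (36.6 to 59.4) and 4.39 CPM (1.77 to 9.05). Ly6a, a surface protein of regenerating epithelium, stood at 123 CPM (106 to 142) and 51.5 CPM (40.9 to 63.9) in members, at 157 CPM in the Neurog3-positive Tph1 cells and at 8.74 CPM in peptide-hormone cells, while Anxa1 had 0 UMIs in members. Each pool has no replicate, so these ratios compare 2 barcode pools.

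Markers of other cell types also differed by suffix in the members. Goblet markers summed to 1703 CPM in suffix 1 and 879 CPM in suffix 2, Paneth markers to 771 and 325 CPM and enterocyte markers to 941 and 530 CPM. In Chgb-low barcodes the same sums went the other way, at 483 and 1162, 690 and 1216, and 4950 and 7287 CPM. The medians over single Chgb-low barcodes did not, at 0.998 and 0.681 CP10K for goblet markers, 2.42 and 2.26 for Paneth markers and 21.9 and 12.1 for enterocyte markers. Single barcodes reached 2000.1 CP10K of goblet markers in suffix 2. Fcgbp and Spink4, named above, are 2 of the 8 goblet markers, and Muc2 stood at 2.01 and 1.26 CPM in members. Their part in the differences between suffixes was not tested. Cartpt and Bex4 (higher in suffix 2) and Lyz1, Alb and Ambp (higher in suffix 1) were kept out of the naming because 3 cells held over 50% of their UMIs.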

How the data were processed

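The authors deposited whole-number UMI counts per gene and barcode for 31053 genes and 21806 barcodes, from droplet libraries (10x Chromium 3′ version 3, per the labels). Per the submitters' processing notes, bcl2fastq 2.20.0, Cell Ranger 3.1.0 and STAR 2.7.3a were used, and the genome build is not given in the sources used here. The matrix totals 194068573 UMIs, 107997440 with suffix 1 and 86071133 with suffix 2, and the files listed for the 2 libraries are identical in 3 of 3 kinds. Of these barcodes 4066 were kept, with a median of 29222 UMIs.

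Membership, group sums, CPM and ratios were computed with Python 3.11.15, numpy 2.4.6, scipy 1.17.1 and pandas 2.3.3, after tests on simulated data. CPM carry exact Poisson intervals and shares exact Clopper-Pearson intervals. A count of 0 allows up to 3 counts of the total. Cells are not replicates, so there is no p-value. Doublets were not called or removed.

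The members and gene lists were chosen with earlier results of these data known. Genes named by size had 50 CPM or more in a group, intervals apart and under 50% of the UMIs of the higher group in 3 cells. The rule's own genes were left out. The 12 largest and 12 smallest ratios were named against other kept and peptide-hormone cells, and 8 each elsewhere, beside markers and list genes. Alternatives changed the limits, depth, pseudocount, scaling and suffix.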

Additional observations from a re-analysis of the deposited data

Results flagged for a closer look

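Of 9781 barcodes left out for more than 20% mitochondrial UMIs, 52 met every other limit of the enterochromaffin rule (0.532%, exact Clopper-Pearson interval 0.397% to 0.697%). These barcodes enter no comparison above, and a count of 0 would have allowed up to 0.0307%. Of the 52, 32 had suffix 1 and 20 suffix 2. Their medians were 3518 UMIs and 40.8% mitochondrial UMIs, and 39 lay between 20% and 50%. A UMI of Tac1 was present in 43, of Chga in 41, of Reg4 in 34 and of Ucn3 in 18.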

How the results depend on the processing

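No paired analysis was possible because the libraries form 1 pooled matrix with no replicates. The planned comparison of members with high and low Tac1 was not run, since 2 members fell under its limit. That count was 1 at 10% mitochondrial UMIs, 8 at 50%, 0 at 5000 UMIs, 0 at Tph1 of 10, 0 at Chgb of 20, 1 at a hormone sum under 10 and 0 in suffix 2. Single suffixes and the Reg4 cut were added after seeing the data. Members numbered 103 in suffix 1 and 102 in suffix 2. Their share of kept barcodes was 6.72% at a mitochondrial limit of 10%, 2.90% at 50%, 3.66% at Tph1 of 10 and 5.78% in suffix 2. Members with Reg4 were 55.3% in suffix 1, 74.5% in suffix 2 and 74.6% counting any UMI, and after thinning 55.4% and 75.9% by suffix. Members with Ucn3 were 59.2%, 35.3% and 71.2%, after thinning 58.5% and 36.2%, and 60.0% at 5000 UMIs. A pseudocount of 10 CPM lowered the counts of called genes to 1652 higher and 751 lower against other kept barcodes, 471 higher against peptide-hormone cells, 217 higher and 146 lower against Neurog3-positive cells, 9 and 52 between suffixes and 68 and 50 by Reg4. With no level filter they were 602 lower against peptide-hormone cells, 755 lower against Neurog3-positive cells, 235 higher and 340 lower between suffixes and 376 higher by Reg4. Genes higher in suffix 2 numbered 191 at 10% mitochondrial UMIs and 236 at Tph1 of 10. By Reg4, higher genes numbered 384 within suffix 1 and 593 within suffix 2, and lower genes 567 and 769, or 444 at Tph1 of 10, with fewer cells in each. Of 1795 recomputed values of named genes, 1458 stayed within their interval, 335 moved and 2 changed sign. Sst against peptide-hormone cells was 0.74 within suffix 1 and Lyz1 by Reg4 was 0.039 within suffix 2. The cause was not tested. Depth limits genes under 0.973 CPM in members.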
